A study of Homo sapiens with 6 samples.

Results

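Lysosome and autophagy genes were followed in 786-O and A-498, established human clear cell renal cell carcinoma lines, with and without knockdown of the zinc finger protein ZNF395. The 33 genes were taken by symbol from a count table of 32357 genes, and all 33 were found and passed the expression filter that left 20144 genes to test. They encode 3 lysosomal membrane proteins, 8 cathepsins, 5 glycosidases, 3 subunits of the proton pump, 3 transcription factors of the MiT/TFE family, 4 proteins that start autophagy, 6 ATG8-type proteins or parts of their conjugation machinery, and 1 cargo receptor.

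Cells of each line carried ZNF395 hairpin 3, ZNF395 hairpin 1 or a non-targeting control, all delivered by retrovirus as MISSION short hairpin constructs. Virus came from HEK293T, a human embryonic kidney line, and the protocol, worded alike for all samples, gives puromycin selection for 3 days and growth in RPMI-1640 with fetal bovine serum. Each of the 6 combinations of line and construct had 1 library, and the labels do not say whether a culture was a pool or a clone. The p-values therefore measure the spread between lines or between hairpins, not between repeat cultures.

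Library totals ran from 77534125 to 99147218 counts. ZNF395 stood at 14.3 and 13.5 CPM (read counts scaled for library size) with hairpin 3 in A-498 and 786-O, at 14.5 and 24.7 CPM with hairpin 1, and at 67.9 and 96.3 CPM in the controls. In each line both knockdown libraries were below the control. Genes encoded in mitochondrial DNA took 5.13 to 8.21% of counts. The renal lineage markers PAX8 (157 to 256 CPM) and PAX2 (17.7 to 26.6 CPM) were present in all 6 libraries. The clear cell marker CA9 (0 to 1.68 CPM) and the tubule marker LRP2 (0.0100 to 0.0499 CPM) were near absent.

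The lysosome is the acidic compartment in which cells break down proteins, lipids and sugars. Cathepsins and glycosidases do the breaking down, the V-ATPase pumps in the protons, and LAMP proteins line the membrane. Autophagy delivers the cell's own contents to it: the ULK1 kinase and the BECN1 lipid kinase complex start a membrane, an ATG12-ATG5 conjugate and ATG7 attach ATG8 proteins such as LC3 to it, and SQSTM1 brings cargo. TFEB, TFE3 and MITF switch on many of these genes through a promoter element known as CLEAR, and TFE3 and TFEB are rearranged in a class of kidney cancers.

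NEU1, MAP1LC3B, BECN1 and ATG12 were the members that fell with hairpin 3, so the 250 bases before their transcription starts are shown from RefSeq (GRCh38.p14, each on the strand of its gene), with the E-box core CACGTG of the CLEAR element in capitals. NEU1 is at chr6:31862822-31863071 (minus), MAP1LC3B at chr16:87392086-87392335 (plus), BECN1 at chr17:42823880-42824129 (minus) and ATG12 at chr5:115841566-115841815 (minus).
NEU1: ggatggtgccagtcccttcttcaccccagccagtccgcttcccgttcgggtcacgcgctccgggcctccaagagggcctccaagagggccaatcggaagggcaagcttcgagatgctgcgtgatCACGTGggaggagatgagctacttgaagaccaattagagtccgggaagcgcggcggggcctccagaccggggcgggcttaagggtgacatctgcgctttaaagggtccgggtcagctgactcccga
MAP1LC3B: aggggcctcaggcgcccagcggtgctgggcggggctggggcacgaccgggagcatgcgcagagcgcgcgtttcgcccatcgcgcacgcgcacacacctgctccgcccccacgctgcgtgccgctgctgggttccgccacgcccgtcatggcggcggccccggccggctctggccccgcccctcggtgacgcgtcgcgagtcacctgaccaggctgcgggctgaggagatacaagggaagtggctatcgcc
BECN1: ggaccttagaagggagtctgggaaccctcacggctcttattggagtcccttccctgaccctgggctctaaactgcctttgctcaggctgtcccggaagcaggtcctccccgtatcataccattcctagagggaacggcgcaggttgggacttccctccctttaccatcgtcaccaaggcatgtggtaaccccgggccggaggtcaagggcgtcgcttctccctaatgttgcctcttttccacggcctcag
ATG12: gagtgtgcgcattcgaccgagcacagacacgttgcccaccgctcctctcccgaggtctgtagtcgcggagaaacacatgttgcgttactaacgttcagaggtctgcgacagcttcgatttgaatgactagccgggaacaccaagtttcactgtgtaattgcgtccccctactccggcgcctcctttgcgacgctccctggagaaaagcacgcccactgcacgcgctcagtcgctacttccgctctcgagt
NEU1 has the core at -126 to -121, counted back from the start, and the other 3 windows have none.

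Of the 33 members, 25 had a promoter entry, and 7 of these (28%) held CACGTG, against 6.34% of the 35116 entries in the table. Members were counted by gene and the background by entry, and a gene can have several entries. CLEAR is known from genes of this kind, so a higher share was given beforehand and is no result of these libraries. The core CACGTG is its own reverse complement. The longer form TCACGTGA contains it and occurred in 5 members (20%), against 0.854% of all entries. GAA and MCOLN1 held this form with a further G before and C after it, as did 0.308% of all entries. LAMP2, CTSB, CTSK, CTSS, HEXA, ATP6V1A, ATP6V1H and UVRAG had no entry. The core nearest to the start in the 6 members other than NEU1 is shown to compare the flanks.
GAA (chr17:80101533-80101572, plus): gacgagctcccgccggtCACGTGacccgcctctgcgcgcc
MCOLN1 (chr19:7522593-7522623, plus): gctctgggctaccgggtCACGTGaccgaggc
LAMP1 (chr13:113297194-113297233, plus): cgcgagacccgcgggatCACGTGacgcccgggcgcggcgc
CTSA (chr20:45891293-45891332, plus): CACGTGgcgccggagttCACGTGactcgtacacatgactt
ATP6V0D1 (chr16:67481194-67481233, minus): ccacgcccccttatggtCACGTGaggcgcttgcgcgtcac
CTSD (chr11:1763952-1763991, minus): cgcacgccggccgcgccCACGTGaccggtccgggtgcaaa
None of these 6 was called in any comparison of constructs, and a match is a description of the letters, not a site in use. Their log2 fold changes with hairpin 3 lay between -0.30 for GAA and 0.24 for LAMP1. A pair of GAAA repeats 2 bases apart, a form of the interferon response element, and TGATGNAA, a form of the ATF4 element, were searched on both strands. Neither was in any of the 25 windows, against 3.02% and 3.14% of all entries. At such shares 25 windows are too few to read anything from this, and CTSS, with no entry, was not searched.

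Hairpin 3 against the control asked what that construct changed over both lines. NEU1, MAP1LC3B, BECN1 and ATG12 fell, and no member rose: 4 of 33 (12.1%) were called, all down, against 6.71% of all genes tested (4.16% down and 2.55% up). Calls are at an adjusted p under 0.05 in edgeR's quasi-likelihood test over all 20144 genes, and a member's fold is a log2 difference between constructs averaged over the lines. An unadjusted p under 0.05 was found for 7 members, against 25.8% of all genes tested, and the median fold was -0.02 over the members and -0.01 over all genes tested.

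NEU1, the lysosomal sialidase that trims sialic acid from glycoproteins, stood at 29.9 CPM in A-498 and 23.6 CPM in 786-O with hairpin 3, at 44.2 and 64.6 CPM with hairpin 1, and at 54.0 and 71.1 CPM in the controls. Both hairpin 3 libraries were below all 4 others. In such bulk cultures fewer cells with the RNA and less RNA per cell cannot be told apart. The fold with hairpin 3 was -1.20 (SE 0.218, adjusted p = 0.0284 in edgeR), and the fold with hairpin 1 was -0.21 (adjusted p = 0.803). The 786-O library was the lower of the pair, and without it the fold was -0.79 (adjusted p = 0.0138 in edgeR).

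MAP1LC3B encodes LC3B, the ATG8 protein used to mark autophagosomes. It stood at 58.8 CPM in A-498 and 92.9 CPM in 786-O with hairpin 3, at 103 and 144 CPM with hairpin 1, and at 99.7 and 140 CPM in the controls. Within each line the hairpin 3 library was the lowest, and hairpin 1 lay close to the control. The fold with hairpin 3 was -0.68 (SE 0.120, adjusted p = 0.0269 in edgeR), and with hairpin 1 it was 0.04. Its close copy MAP1LC3B2 had 0.306 to 0.544 CPM, and reads shared by the copies cannot be assigned with certainty.

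BECN1, the scaffold of the autophagy lipid kinase complex, stood at 58.3 CPM in A-498 and 36.03 CPM in 786-O with hairpin 3, at 88.5 and 50.3 CPM with hairpin 1, and at 94.2 and 50.8 CPM in the controls. ATG12, the ubiquitin-like protein joined to ATG5, stood at 38.0 and 53.9 CPM with hairpin 3, at 52.4 and 75.9 CPM with hairpin 1, and at 56.1 and 80.7 CPM in the controls. For both genes the hairpin 3 library was again the lowest of its line. The folds with hairpin 3 were -0.59 for BECN1 (SE 0.119, adjusted p = 0.0350) and -0.57 for ATG12 (SE 0.113, adjusted p = 0.0338 in edgeR).

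Of the partners of ATG12, ATG5 (0.05) and ATG7, the activating enzyme (0.27), were not called with hairpin 3. GABARAPL1, an ATG8 protein of the GABARAP branch, stood at 89.7 CPM in A-498 and 48.4 CPM in 786-O with hairpin 3, at 124 and 92.2 CPM with hairpin 1, and at 118 and 119 CPM in the controls. Its hairpin 3 libraries were the lowest of their lines, and its fold of -0.85 was not called (adjusted p = 0.0616 in edgeR). GABARAPL2 had a fold of -0.11. Summed over the 6 ATG8 and conjugation genes, the level was 322 and 370 CPM with hairpin 3, 421 and 488 CPM with hairpin 1, and 415 and 503 CPM in the controls of A-498 and 786-O, lowest with hairpin 3 in each line. The sum includes MAP1LC3B, ATG12 and GABARAPL1, so it is no separate evidence of a fall.

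All 4 calls with hairpin 3 were lost when either control was left out. Of the 6 fits that left out a library, NEU1 and MAP1LC3B kept the call in 4, ATG12 in 3 and BECN1 in 2. Over these fits the folds ran from -1.64 to -0.79 for NEU1 and from -0.74 to -0.61 for MAP1LC3B. They ran from -0.60 to -0.54 for ATG12 and from -0.65 to -0.53 for BECN1. DESeq2 and a fit with no filter on low counts called 7 members, with GABARAPL1 and MITF down and ULK1 up beside the 4. Exons of BECN1, ATG12 and MAP1LC3B overlap genes on the opposite strand (12.4%, 4.25% and 2.82% of exon bases with CNTD1, AP3S1 and FBXO31), and although the library kit keeps the strand, the labels do not say whether counting used it.

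**Figure D1:**
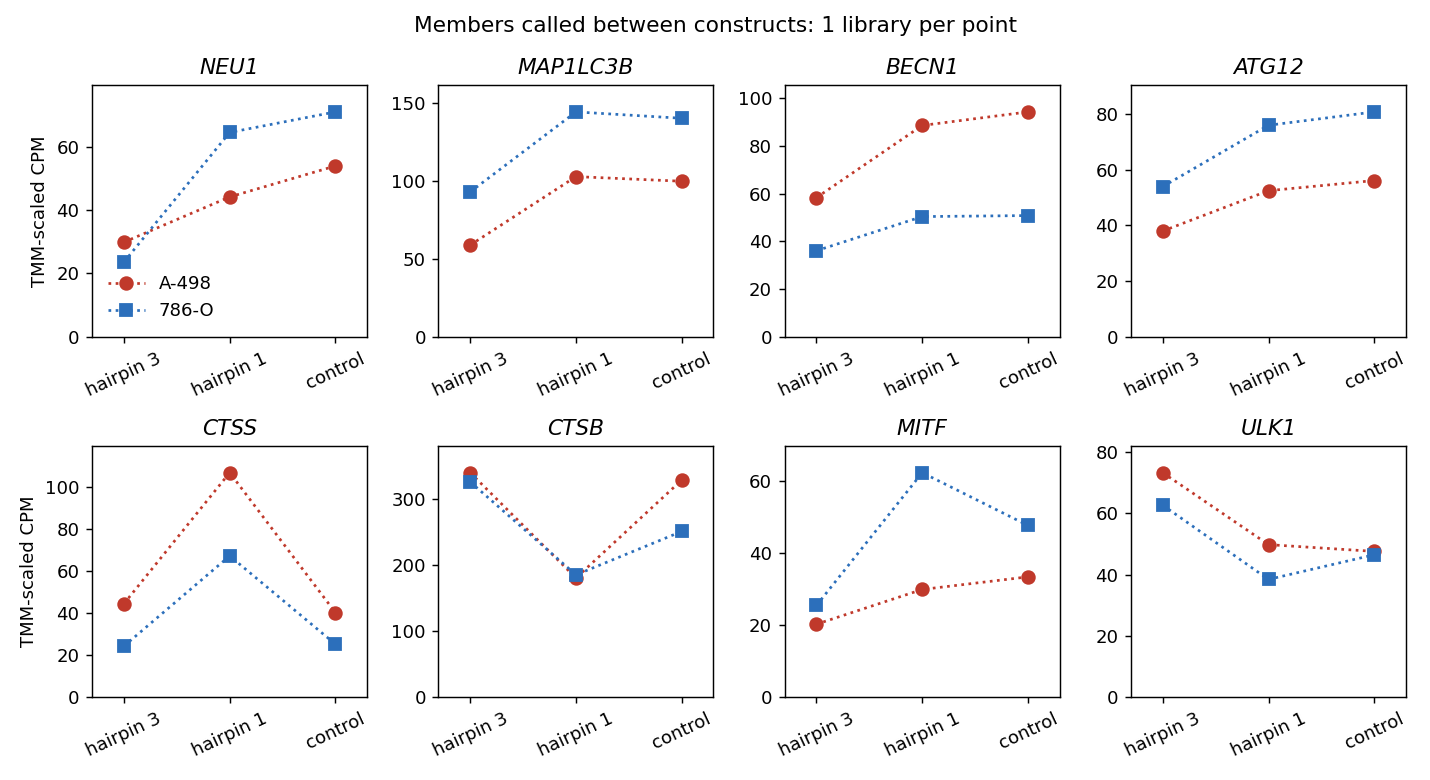
TMM-scaled CPM of the 8 members called between constructs, 1 library per point, for hairpin 3, hairpin 1 and control in A-498 (circles) and 786-O (squares), joined by dotted lines within a line. The hairpin 3 points of NEU1, MAP1LC3B, BECN1 and ATG12 are the lowest of each line, and CTSS is high with hairpin 1 alone (107 and 67.4 CPM).

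Hairpin 1 against the control asked the same of the other construct, and CTSS alone rose. This was 1 of 33 members (3.03%), against 0.149% of all genes tested (0.0397% up, 0.109% down). An unadjusted p under 0.05 was found for 5 members, against 10.5% of all genes tested, and the median fold was -0.05 over the members and -0.0041 over all genes tested.

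CTSS encodes cathepsin S, an endopeptidase that cuts the invariant chain during MHC class II loading and is inducible by interferon. It stood at 107 CPM in A-498 and 67.4 CPM in 786-O with hairpin 1, and at 40.4 and 25.3 CPM in the controls. With hairpin 3 it stood at 44.6 and 24.5 CPM. The fold with hairpin 1 was 1.41 (SE 0.124, adjusted p = 0.0215 in edgeR) and that with hairpin 3 was 0.05 (adjusted p = 0.840). Leaving out the 786-O control (adjusted p = 0.0554), the A-498 control (0.119) or the 786-O hairpin 1 library (0.128) ended the call, with folds from 1.34 to 1.47 over the 6 fits that left out a library.

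CTSS is abundant in macrophages and other antigen-presenting cells, so immune markers were summed beside it. The 7 immune markers in the table summed to 6.17 CPM in A-498 and 4.07 CPM in 786-O with hairpin 1, to 6.22 and 1.47 CPM with hairpin 3, and to 4.65 and 2.47 CPM in the controls. The pan-leukocyte marker PTPRC (at most 0.0903 CPM), the myeloid LYZ (at most 0.0817 CPM) and the B cell marker MS4A1 (at most 0.0301 CPM) were near absent in all 6 libraries. ITGAM and CSF1R reached 4.93 and 3.34 CPM, CD14 0.761 CPM, and HLA-DRA 2.83 CPM, the last in A-498 with hairpin 1. Of the 4 immune markers tested, 4 had a fold above 0 with hairpin 1 (median 0.478) and 1 with hairpin 3 (median -0.615). None was called in these 2 comparisons by edgeR. The part of these markers in the CTSS result was not tested.

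CTSB, a widely expressed cathepsin with endopeptidase and carboxydipeptidase activity, stood at 181 CPM in A-498 and 186 CPM in 786-O with hairpin 1, and at 329 and 251 CPM in the controls. With hairpin 3 it stood at 340 and 326 CPM. Its hairpin 1 libraries were the lowest of their lines, and the fold of -0.65 with hairpin 1 was not called (adjusted p = 0.196 in edgeR). DESeq2 (adjusted p = 0.0104), edgeR with no filter on low counts (0.0238) and the fits without the 786-O or the A-498 hairpin 3 library (0.0376 and 0.0451) called it.

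Hairpin 3 against hairpin 1 compared the constructs directly, and 8 of 33 members differed (24.2%, against 9.48% of all genes tested). CTSB (0.86, SE 0.145, adjusted p = 0.0210) and ULK1 (0.63, SE 0.131, adjusted p = 0.0344) were higher with hairpin 3, which is 6.06% of members against 4.09% of all genes. CTSS, NEU1, MAP1LC3B, BECN1, ATG12 and MITF were lower with hairpin 3, which is 18.2% of members against 5.4% of all genes in edgeR. An unadjusted p under 0.05 was found for 12 members, against 28% of all genes tested.

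CTSS had the largest difference (-1.36, SE 0.124, adjusted p = 0.00760 in edgeR) and was called in all 6 fits that left out a library. Of the immune markers, HLA-DRA was also lower with hairpin 3 than with hairpin 1 (-1.89, adjusted p = 0.0300), at 0.766 against 2.83 CPM in A-498 and with at most 1 count a library in 786-O. NEU1 differed by -0.99 (adjusted p = 0.0390), MAP1LC3B by -0.72 (0.0204), BECN1 by -0.54 (0.0386) and ATG12 by -0.48 (0.0456). These share the hairpin 3 libraries with the comparison to the control and are no separate evidence of a fall.

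ULK1, the kinase that starts autophagy, stood at 73.2 CPM in A-498 and 62.6 CPM in 786-O with hairpin 3, at 49.8 and 38.4 CPM with hairpin 1, and at 47.6 and 46.5 CPM in the controls. The 2 hairpin 3 libraries were above all 4 others, and against the control its fold of 0.52 was not called (adjusted p = 0.0624). Within the initiation group ULK1 and BECN1 differed between the hairpins in opposite directions. UVRAG, a partner in the BECN1 complex (-0.05), and WIPI1 (0.04) did not pass.

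MITF, the melanocyte lineage factor of the MiT/TFE family, stood at 20.3 CPM in A-498 and 25.5 CPM in 786-O with hairpin 3, at 29.9 and 62.2 CPM with hairpin 1, and at 33.4 and 47.6 CPM in the controls. It was lowest with hairpin 3 in each line, with a difference between the hairpins of -0.93 (SE 0.189, adjusted p = 0.0324). The fold against the control was -0.80 (adjusted p = 0.0534 in edgeR). Without the 786-O hairpin 1 library the difference between the hairpins was -0.60 (adjusted p = 0.145).

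TFEB, the best known regulator of lysosomal genes, stood at 9.04 CPM in A-498 and 7.96 CPM in 786-O with hairpin 3, at 5.16 and 8.02 CPM with hairpin 1, and at 6.61 and 7.93 CPM in the controls. TFE3 stood at 52.9 and 122 CPM with hairpin 3, at 47.2 and 102 CPM with hairpin 1, and at 48.5 and 96.8 CPM in the controls. TFEB was near level in 786-O and TFE3 in A-498, and the differences between the hairpins, 0.40 for TFEB and 0.22 for TFE3, did not pass.

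Of the 6 fits that left out a library, NEU1 and MITF kept the call between the hairpins in 5 and MAP1LC3B and CTSB in 4. BECN1 and ULK1 kept it in 1 and ATG12 in 0. Without the 786-O hairpin 1 library CTSS alone was called. Over the 6 fits the difference ran from -0.60 to -0.48 for BECN1, from 0.52 to 0.75 for ULK1 and from -0.51 to -0.44 for ATG12. DESeq2 and edgeR with no filter called 11, with GABARAPL1 and SQSTM1 down and LAMP1 up beside the 8.

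No other enzyme or membrane protein among the members was called with either hairpin. Among the cathepsins, CTSA, CTSD, CTSH, CTSK, CTSL and CTSZ had folds from -0.41 to 0.15 with hairpin 3 and from -0.45 to 0.01 with hairpin 1. CTSH, an aminopeptidase, was below the control in all 4 knockdown libraries, at 67.8 and 8.13 CPM with hairpin 3 in A-498 and 786-O, 56.0 and 9.61 CPM with hairpin 1, and 71.5 and 14.0 CPM in the controls. Neither fold (-0.41 and -0.45) passed.

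GLA, the galactosidase deficient in Fabry disease, was also below its control in all 4 knockdown libraries, with log2 ratios between -0.33 and -0.09, and did not pass (folds -0.21 and -0.23). GAA, which digests glycogen and is deficient in Pompe disease, stood at 128 CPM in A-498 and 12.0 CPM in 786-O with hairpin 3 and at 124 and 19.8 CPM in the controls, so of the hairpin 3 libraries that of 786-O was low. GUSB (0.38 with hairpin 3) and HEXA (0.32) did not pass.

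LAMP1, a main glycoprotein of the lysosomal membrane, stood at 334 CPM in A-498 and 414 CPM in 786-O with hairpin 3, at 217 and 317 CPM with hairpin 1, and at 290 and 342 CPM in the controls. In each line it was highest with hairpin 3 and lowest with hairpin 1, and the difference between the hairpins (0.50) had an adjusted p = 0.0630 in edgeR. LAMP2, which is also the receptor of chaperone-mediated autophagy, stood at 258 and 486 CPM with hairpin 3, at 265 and 416 CPM with hairpin 1, and at 261 and 422 CPM in the controls. It was higher in every 786-O library, and the difference between the hairpins was 0.09 (SE 0.130, adjusted p = 0.684). MCOLN1, a calcium channel of the lysosome, had a difference between the hairpins of -0.44 (adjusted p = 0.136).

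SQSTM1, the p62 cargo receptor, stood at 722 CPM in A-498 and 249 CPM in 786-O with hairpin 3, at 1020 and 370 CPM with hairpin 1, and at 716 and 309 CPM in the controls. It was highest with hairpin 1 in each line, and neither the fold with hairpin 1 (0.38, adjusted p = 0.395) nor the difference between the hairpins (-0.53, adjusted p = 0.0573) passed in edgeR. The proton pump subunits ATP6V0D1, ATP6V1A and ATP6V1H had folds from -0.17 to 0.05 with hairpin 3 and from -0.08 to 0.30 with hairpin 1.

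With both hairpins pooled against the control, 0 of 33 members were called by edgeR, against 0% of all genes tested. ZNF395 itself was not called in this fit (-2.29, SE 0.235, adjusted p = 0.358 in edgeR). The lack of calls therefore does not show that the hairpins share no effect. CTSH was the 1 member with an unadjusted p under 0.05, against 5.03% of all genes. DESeq2 called 0 members. Folds ran from -0.62 for NEU1 (SE 0.379) to 0.88 for CTSS (SE 0.488), each called with 1 hairpin and not with the other. The median was -0.05 over the members and 0.00039 over all genes tested. In the authors' deposited table, which sets control over knockdown, the lowest adjusted p of a member is 0.845, for CTSH.

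Each knockdown library was also set against the control of its line. The ratio had the same sign in all 4 libraries for 9 members, 3 up (ATP6V0D1, ATG7 and UVRAG) and 6 down (CTSH, GLA, NEU1, BECN1, ATG12 and WIPI1). That is 27.3% of members, against 26.8% of all genes tested. The 2 hairpins of a line share its control, so the 4 ratios are not independent. On raw library totals ATP6V0D1 was no longer up in all 4 and HEXA was. The median size of the log2 ratio was 0.220 with hairpin 3 and 0.142 with hairpin 1 over the members. Over all genes tested it was 0.142 and 0.0935. The 2 CPM added before the log2 shrinks the ratios of genes with few reads, which the genes tested include. These medians therefore do not compare the members with genes of like level.

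**Figure D2:**
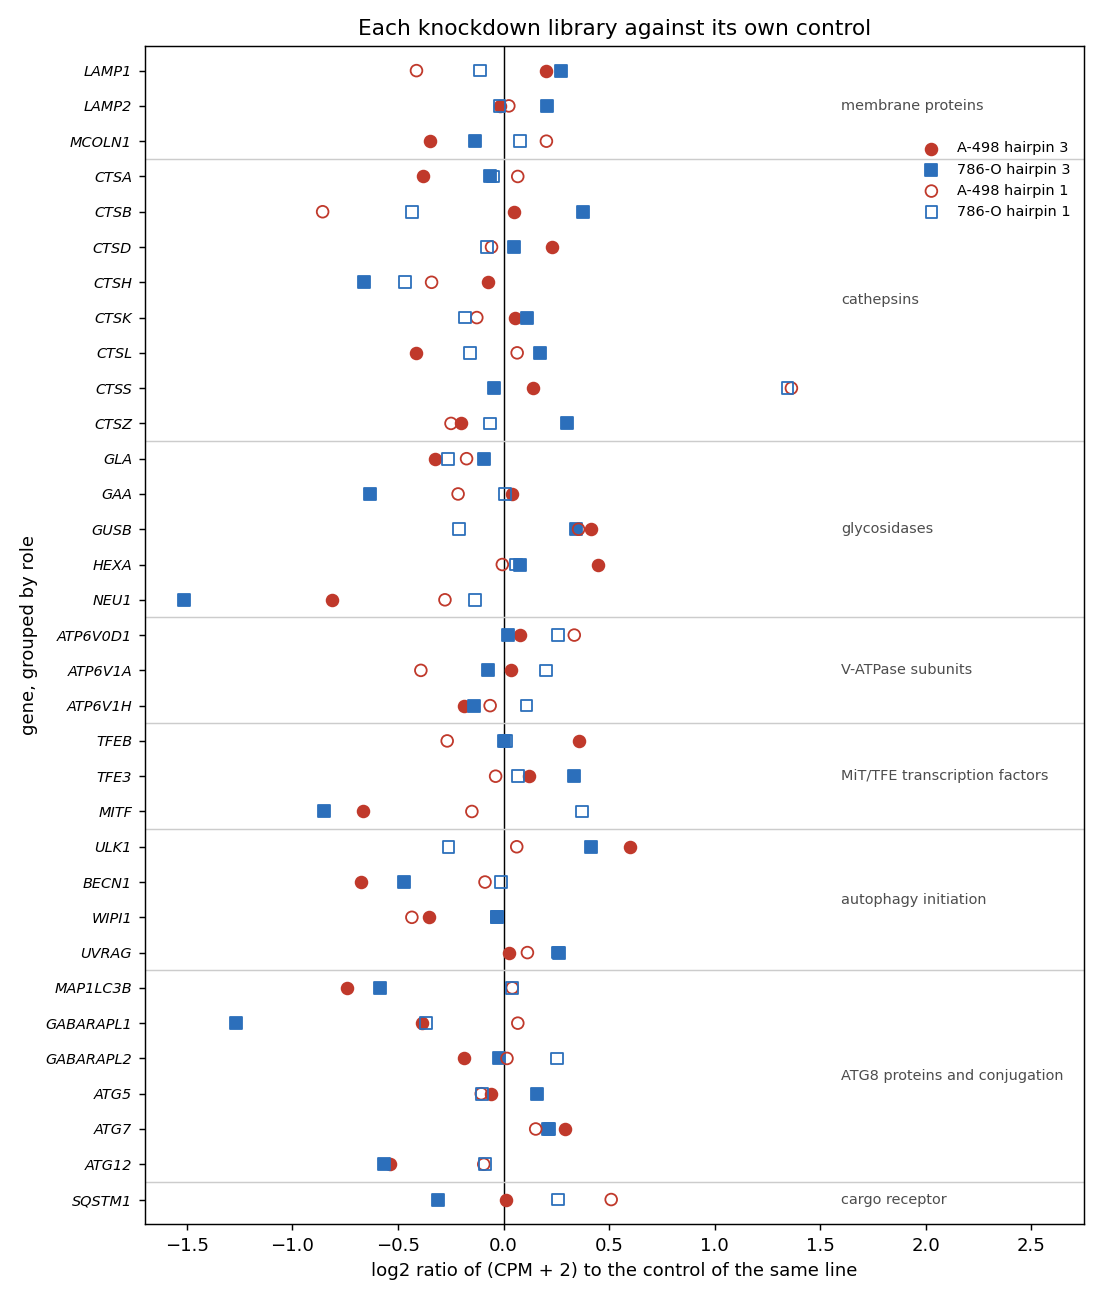
Log2 ratio of each knockdown library to the control of its own line, with 2 CPM added to both, for the 33 members by role. Filled symbols are hairpin 3, open symbols hairpin 1, circles A-498 and squares 786-O. The open symbols of CTSS stand at 1.36 in A-498 and 1.34 in 786-O, and the lowest ratio is NEU1 with hairpin 3 in 786-O (-1.51).

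Whether the knockdown effect differed between the lines was tested as the difference of the pooled folds, A-498 minus 786-O. edgeR called 0 members and 0% of all genes, no member had an unadjusted p under 0.05 (0.789% of all genes did), and DESeq2 called 0 members. Differences ran from -0.42 for WIPI1 to 0.62 for GABARAPL1. With 1 control a line this comparison rests on the 2 hairpins as replicates.

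A-498 against 786-O gave more calls among the members than any comparison of constructs. GAA, CTSH, SQSTM1, CTSL, GLA, BECN1, ATP6V1A and CTSD were higher in A-498 and CTSZ, CTSK, TFE3, HEXA, ATG5, WIPI1, GUSB and LAMP2 lower. These are 16 of 33 (48.5%), against 47.2% of all genes tested (25.7% higher, 21.4% lower), so the share was near that of genes at large. An unadjusted p under 0.05 was found for 19 members, against 54.9% of all genes tested. BECN1 was the single member called both between constructs and between lines, and 10 members were called in neither. In 19 members the 3 libraries of A-498 did not overlap the 3 of 786-O (57.6%, against 59.1% of all genes tested).

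Among the cathepsins CTSZ, a carboxypeptidase, stood at 160, 155 and 184 CPM with hairpin 3, hairpin 1 and control in A-498, against 970, 755 and 788 CPM in 786-O, a difference of -2.34 on the log2 scale (SE 0.167, adjusted p = 1.3e-04 in edgeR). CTSH, whose values are given above, was 2.65 higher in A-498 (SE 0.182, adjusted p = 1.09e-04). In both genes each library of a line was clear of the range of the other line.

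CTSL, an endopeptidase, stood at 338, 472 and 451 CPM with hairpin 3, hairpin 1 and control in A-498, against 209, 166 and 186 CPM in 786-O (1.17, SE 0.183, adjusted p = 0.00278 in edgeR). CTSD, the main aspartic protease, stood at 561, 460 and 479 CPM in A-498, against 375, 343 and 362 CPM in 786-O (0.47, SE 0.140, adjusted p = 0.0306). CTSK, the collagenase of osteoclasts, was low in both lines, at 1.59, 1.17 and 1.46 CPM in A-498, against 4.32, 3.15 and 3.84 CPM in 786-O (-1.42, adjusted p = 0.00455). The lines did not overlap in any of the 3. An overlapping gene on the strand of CTSD takes in 41.7% of its exon bases, which leaves its counts uncertain. Exons of WIPI1 and SQSTM1 overlap ARSG and MRNIP on the opposite strand over 24.3% and 20.7% of their bases. Summed over the 8 cathepsins the level was 1720 to 1831 CPM in A-498 and 1716 to 2102 CPM in 786-O, so the totals of the lines overlapped.

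The glycosidases also split by line. GAA stood at 128, 107 and 124 CPM with hairpin 3, hairpin 1 and control in A-498, against 12.05, 19.9 and 19.8 CPM in 786-O (2.80, SE 0.228, adjusted p = 2.17e-04 in edgeR), the largest difference among the 33 members. GLA stood at 68.7, 76.5 and 86.6 CPM in A-498, against 40.9, 36.1 and 43.7 CPM in 786-O (0.94, adjusted p = 0.00196). Both genes were higher in every A-498 library.

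GUSB, the glucuronidase often used as a reference gene, stood at 93.3, 89.4 and 69.5 CPM in A-498, against 174, 118 and 137 CPM in 786-O (-0.77, adjusted p = 0.0140 in edgeR). HEXA, the hexosaminidase subunit deficient in Tay-Sachs disease, stood at 11.1, 7.56 and 7.60 CPM in A-498, against 18.9, 18.7 and 17.8 CPM in 786-O (-1.08, adjusted p = 0.00477). Both were lower in every A-498 library. Exons of HEXA overlap a protein-coding gene on its strand over 4.89% of their bases and an antisense gene over 10.1%, so its counts are less certain. NEU1, which fell with hairpin 3, was not called between the lines (-0.30).

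SQSTM1 was higher in A-498 by 1.40 (SE 0.218, adjusted p = 0.00269 in edgeR) and BECN1 by 0.81 (SE 0.214, adjusted p = 0.0204). ATP6V1A, the catalytic subunit of the pump, stood at 189, 141 and 185 CPM with hairpin 3, hairpin 1 and control in A-498, against 97.1, 118 and 102 CPM in 786-O (0.70, adjusted p = 0.0164). All 3 genes were free of overlap between the lines.

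LAMP2 (-0.75, adjusted p = 0.00428 in edgeR) and TFE3 (-1.11, SE 0.145, adjusted p = 0.00137) were lower in A-498. ATG5 stood at 36.02, 34.8 and 37.6 CPM with hairpin 3, hairpin 1 and control in A-498, against 80.5, 66.7 and 71.8 CPM in 786-O (-1.01, adjusted p = 0.00171). WIPI1, which binds the lipid made by the BECN1 complex, stood at 11.6, 10.9 and 15.4 CPM in A-498, against 24.6, 24.6 and 25.2 CPM in 786-O (-0.99, adjusted p = 0.00299). No A-498 library of these 4 genes reached the level of a 786-O library. TFEB (-0.20) and MITF (-0.71) did not pass.

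Of the 16 line calls, 11 held in all 6 fits that left out a library, HEXA held in 5, ATP6V1A and GUSB in 3, BECN1 in 2 and CTSD in 1. All 5 of these were lost without the 786-O control, and all but HEXA without the A-498 control or the 786-O hairpin 3 library too.

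**Figure D3:**
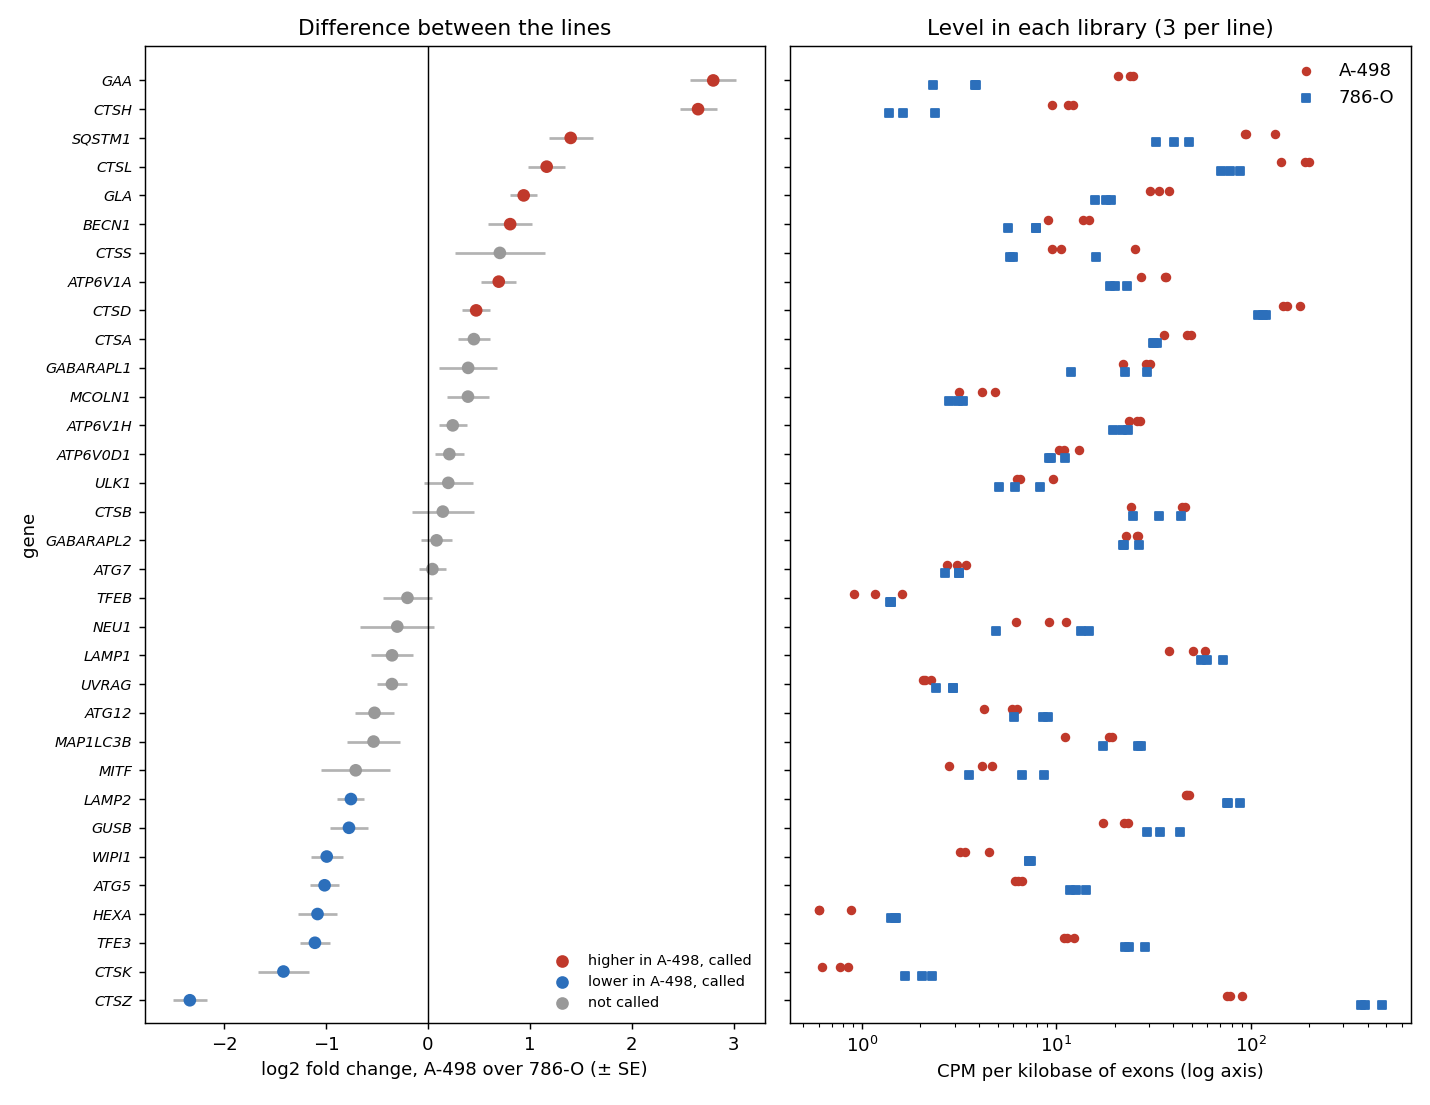
Left, log2 fold change of A-498 over 786-O with its standard error for the 33 members, called ones coloured. Right, the level per kilobase of exons in each library on a log axis, with A-498 as circles and 786-O as squares. GAA (2.80) and CTSH (2.65) are at the top and CTSZ (-2.34) at the bottom.

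Per kilobase of merged exons, a rough scale for comparing genes, the order of the levels differed between the lines. In A-498 CTSL (143 to 199 CPM per kb) and CTSD (147 to 180) had the highest medians of the 33 members, and their ranges overlap. SQSTM1 (93.5 to 133) and CTSZ (75.9 to 90.4) followed, without overlap. In 786-O CTSZ (370 to 476 CPM per kb) was above CTSD (110 to 120), and CTSD above CTSL (70.2 to 88.5) and LAMP2 (75.3 to 87.9), which overlap. The lowest medians in A-498 were those of HEXA (0.5998 to 0.879), CTSK (0.622 to 0.845) and TFEB (0.913 to 1.601 CPM per kb), and in 786-O those of TFEB (1.40 to 1.42), HEXA (1.41 to 1.499) and CTSH (1.38 to 2.38). CTSS ranged from 5.78 to 25.3 CPM per kb over the 6 libraries. Among the MiT/TFE factors TFE3 (median over the 6 libraries 17.5 CPM per kb, range 11.02 to 28.6) was above MITF (median 4.41, range 2.82 to 8.67) and TFEB in every library, since these ranges do not overlap. The divisor joins the exons of all annotated transcripts of a gene and can exceed the length of its main RNA. For HEXA it is 12611 bases. Before this division HEXA had 17.8 to 18.9 CPM in 786-O, against 7.93 to 8.02 CPM for TFEB, so the order depends on the annotation too.

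The wider pathway was followed in 4 lists. With hairpin 3, 1 of 47 other lysosomal enzymes and membrane proteins rose and 2 fell, against 2.55% of all genes tested that rose and 4.16% that fell. M6PR, a receptor that carries enzymes to the lysosome, rose (0.89, adjusted p = 0.0156 in edgeR) to 133 CPM in A-498 and 174 CPM in 786-O, against 74.6 and 90.3 CPM in the controls. The legumain gene LGMN, an asparaginyl protease, fell (-1.601, adjusted p = 0.0130) to 9.12 and 26.5 CPM, against 28.6 and 78.3 CPM in the controls. CTSV, a relative of CTSL, fell too (-1.36, adjusted p = 0.0143), to 3.44 and 9.71 CPM, against 9.66 and 23.1 CPM in the controls. An unadjusted p under 0.05 was found for 16 of the 47, against 25.8% of all genes tested, and the median fold of the list was 0.06.

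Of 21 other V-ATPase subunits 0 rose and 2 fell with hairpin 3, against the same 2.55% and 4.16% of all genes tested. ATP6V1C1, a subunit of the peripheral part, fell (-1.09, adjusted p = 0.0173 in edgeR) to 99.3 CPM in A-498 and 91.9 CPM in 786-O, against 255 and 161 CPM in the controls. ATP6V0A4, a kidney-type subunit, fell too (-1.90, adjusted p = 0.0274), to 0.112 and 0.240 CPM, against 0.401 and 0.936 CPM in the controls. Of 34 other autophagy genes tested 0 were called, against 6.71% of all genes. An unadjusted p under 0.05 was found for 11 of the 34, against 25.8% of all genes, and their median fold was -0.09. FNIP2, a partner of folliculin, alone was called among 22 genes of lysosomal nutrient sensing. It rose (1.18, adjusted p = 0.0245 in edgeR), as did 2.55% of all genes tested. An unadjusted p under 0.05 was found for 9 of these 22 and for 3 of the 21 pump subunits, against 25.8% of all genes. Their median folds were 0.16 and -0.15.

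With hairpin 1 edgeR called 0 genes of any of the 4 lists, against 0.149% of all genes tested. The numbers at an unadjusted p under 0.05 were 6 of 47, 3 of 21, 3 of 34 and 3 of 22 for enzymes, pump, autophagy and nutrient sensing, against 10.5% of all genes tested. Between hairpin 3 and hairpin 1, 6 of the 47 enzymes and membrane proteins were higher and 3 lower, against 4.09% and 5.4% of all genes tested, led by LGMN (-1.57), the acid lipase LIPA (0.77), the peptidase TPP1 (1.26) and CTSV (-0.98). In the pump 1 was higher (ATP6V0E2) and 3 lower (ATP6V1C1, ATP6V0D2, at under 1 CPM in all libraries, and ATP6V1E1). ATG16L2 (0.64) and FLCN (0.67) were higher and RRAGD (-1.34), a Rag GTPase, was lower with hairpin 3. Exons of M6PR (29.3% of its exon bases), ATP6V0D2 (16.7%), ATP6V0E2 (12.8%), FLCN (11.9%), TPP1 (11.6%), ATG16L2 (7.89%) and ATP6V0A4 (3.71%) overlap another gene, given here for the widest overlap of each, as do those of LIPA and ATP6V1C1 over smaller shares. These counts are less certain.

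Between the lines 16 of the 47 enzymes and membrane proteins were higher in A-498 and 9 lower, led by the sorting receptor SORT1 (-6.25), the cathepsins CTSO (3.37) and CTSF (6.18), and the sulfatase SGSH (2.49). Of the pump 4 were higher and 4 lower, led by ATP6V0A1 (2.34). Of the autophagy genes 8 were higher and 8 lower, led by ULK2 (-6.79), a relative of ULK1, at 0.0613, 0.0250 and 0.110 CPM in A-498 with hairpin 3, hairpin 1 and control against 7.73, 6.78 and 7.60 CPM in 786-O. Of nutrient sensing 5 were higher and 3 lower, among them RRAGA (1.28), NPRL3 (-1.02), RRAGD (3.47) and MTOR (-0.82). Of all genes tested 25.7% were higher and 21.4% lower, against which these 4 counts (over 47, 21, 34 and 22 genes) are to be read. Exons of SGSH, ATP6V0A1, NPRL3 and MTOR also overlap other genes, over at most 6.9% of their bases for any 1 neighbour.

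Apart from COL1A1, markers of other cell types were low. The 4 endothelial markers summed to 0.191 to 2.23 CPM and the 3 osteoclast markers to 0.388 to 3.34 CPM over the 6 libraries. Of the osteoclast markers ACP5, itself an acid phosphatase of lysosomes, stood at 0.0306 CPM in A-498 and 0.360 CPM in 786-O with hairpin 3, at 0.462 and 3.18 CPM with hairpin 1, and at 0.211 and 1.77 CPM in the controls. It fell with hairpin 3 (-2.37, adjusted p = 0.0173 in edgeR). With hairpin 1 it was above the control in each line without passing (0.96, adjusted p = 0.303, unadjusted p = 0.0117 in edgeR), and it was lower with hairpin 3 than with hairpin 1 (-3.32, adjusted p = 0.00870 in edgeR). The other osteoclast marker tested, CALCR, was also above the control in each line with hairpin 1 without passing (1.08, adjusted p = 0.338, unadjusted p = 0.0158 in edgeR), at 0.924 CPM in A-498 and 0.166 CPM in 786-O, against 0.411 and 0.0885 CPM in the controls. DCSTAMP had at most 3 counts in a library. The 5 fibroblast markers summed to 19.5 to 41.3 CPM in A-498 and 6.80 to 9.41 CPM in 786-O, most of it COL1A1 in A-498 (up to 40.8 CPM). LUM and PDGFRB reached at most 4.20 and 2.29 CPM, and COL1A2 and DCN at most 0.0383 and 0.0499 CPM. The part of these markers in the results above was not tested.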

How the data were processed

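Libraries were prepared from total RNA with a kit that keeps the strand, 1 library per line and construct, and each was assigned by its own labels. The authors deposited raw read counts per gene symbol; the tools STAR and DESeq2 and the builds hs37d5 and hg19 are named, without version or role, per the submitters' processing notes. The sources used here do not give the counting tool, its strand setting or the annotation. Per the file headers the authors' table also holds a mean signal per gene, a log2 fold change of control over knockdown with its standard error, a test score, and raw and adjusted p-values. The number of unlisted number columns was 0. Every listed gene has a summed count of at least 2.

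The quasi-likelihood F test of edgeR 4.0.16 (R 4.3.3) was run on the counts after TMM scaling and filterByExpr with knockdown status as the group. Benjamini-Hochberg adjustment covered 20144 genes, with calls at an adjusted p under 0.05. Standard errors came from the F statistic. The edgeR fit draws the variance of each gene towards a trend over all genes, so its p-values also rest on other genes. Constructs were compared with terms for line and construct, pooled knockdown and lines with terms for line and knockdown status, and the difference of knockdown between lines with 4 means, which left 2, 3 and 2 residual degrees of freedom. Ratios per library used log2 of CPM with 2 added. Alternatives were DESeq2 1.42.0 with its size factors, no filter, a hairpin block, and leaving out each library. The scripts were tested on simulated data.

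The hairpin numbers are not replicate numbers, and libraries with the same hairpin number received the same reagent. Exon lengths and overlaps came from GENCODE (GRCh38), and promoters from RefSeq GRCh38.p14, searched over 250 bases; the notes name an older build, and no coordinates were moved between builds. The members and lists were chosen with earlier results of these data known. All members are accounted for; of each pathway list at most the 4 called genes of smallest p per comparison are named. HLA-DRA, ACP5 and CALCR were named from the marker lists after their values were seen. Library totals of 77534125 counts or more keep counting error small for most members. It is larger for CTSK, with 94 to 156 counts in the A-498 libraries. The p-values measure the spread between libraries.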

Additional observations from a re-analysis of the deposited data

How the results depend on the processing

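With DESeq2's size factors in edgeR the number of called members was the same in each of the 6 comparisons. With no filter on low counts 7 members (2654 genes in all) were called with hairpin 3 against the control, 2 (478) with hairpin 1 and 11 (3117) between the hairpins. DESeq2 gave 7 (2623), 2 (474) and 11 (2990), and 0 (92) for pooled knockdown. With the hairpin number as a replicate block pooled knockdown gave 0 members and 26 genes in all, and the block changed no call on a member. Leaving out 1 library in turn gave 0 to 7 members (121 to 2337 genes) with hairpin 3, 0 to 2 (0 to 608) with hairpin 1, 1 to 9 (249 to 3312) between the hairpins, and 11 to 17 (5581 to 8587) between the lines; pooled knockdown stayed at 0. Such fits have 1 residual degree of freedom where line and construct are modelled, and the lone library of a group is assumed to vary like the others. The difference between lines could not be fitted without a control. Over all called members and alternatives, 208 values kept their direction and call, 53 kept the direction and lost the call, and 0 reversed. The cause of these changes was not tested. There was 1 library per line and construct, with 77534125 counts or more in each.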
